A study of Homo sapiens and Mus musculus with 41 samples.

Results

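The data compare the brain metastatic derivative (BrM) of the Lewis lung carcinoma line with the parental line (Par) from which it came, gene by gene. Lewis lung carcinoma (LLC) is a mouse tumour cell line, described by its label as a spontaneous lung carcinoma of a C57/B6 mouse. Genes were kept when their deposited normalized count reached 10 in at least 2 of the 11 LLC libraries, which left 13494 of the 23337 genes listed. The groups were 3 BrM libraries, 3 libraries of a leptomeningeal derivative (Lep), 2 of an intermediate-stage derivative (Int) and 3 Par libraries, out of 41 libraries in a series built to find genes that mediate spread to the leptomeninges. The parental line carries stable GFP, and the labels name no drug, knockout or other treatment in any group. Derivative cells were cultured on plastic in serum-containing medium until the population was uniformly GFP-positive, and were passaged before RNA was taken, so all values describe cultured cells and not tumours in the brain. The labels describe recovery of cells only from rinsed leptomeninges. The sources used here do not give how the BrM cells were obtained or whether they are 1 clone. Par libraries are technical replicates by the design text, which does not say what the BrM replicates are, so p-values here measure the spread between libraries, which may be technical.

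A brain metastatic derivative is made from tumour cells that have grown in the brain, an organ closed off by a tight endothelial barrier and poor in the fibrillar collagens of most other tissues. Cells that settle there are known to depend on passage of that barrier, on escape from proteases that astrocytes and microglia activate, on attachment to brain vessels and on shielding from immune attack. Complement C3 and the iron-binding lipocalin Lcn2 belong to another niche, since tumour cells in the cerebrospinal fluid are known to produce them. Their levels in the brain-adapted line are therefore reported beside those of the leptomeningeal line.

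Between 18029707 and 28453742 reads were recovered per BrM library, 26787313 to 49473662 per Lep library, 67198962 and 67939274 per Int library, and 29588710 to 52876610 per Par library. BrM replicate 2 stood apart: it was the shallowest library, ribosomal protein genes took 4.64% of its reads against 2.01% to 3.68% in the 10 other LLC libraries, and 1171 and 1094 genes differed more than 2-fold between it and BrM replicates 1 and 3. BrM replicates 1 and 3 differed more than 2-fold at 528 genes, with a chi-square of 2.96 per degree of freedom, which is above sampling noise. For pairs of Par libraries, technical replicates by the design text, the chi-square was 12.1 to 29.4 and 169 to 316 genes differed more than 2-fold. BrM replicates 1 and 3 were thus closer than Par replicates by chi-square and further apart by that gene count. They were counted as separate libraries, and whether they are technical replicates was not tested. The part that depth or replicate 2 plays in the results was not tested beyond the values given without that library. Of the markers that define lung epithelium, Nkx2-1, Sftpc, Sftpb, Sftpa1, Sftpd, Scgb1a1 and Epcam did not reach the value filter, with no value above 3.29 in BrM or above 4.98 in Par. Cdh1 was also under the filter, and the mesenchymal filament vimentin averaged 173016 ± 25089 normalized counts in BrM and 184977 ± 16099 in Par (SD, n = 3 each). Krt8, Krt18, Foxa1, Foxa2, Hopx, Ager and Napsa of the lung list passed the filter. Napsa, a protease of alveolar cells, was at 0 in all BrM libraries and at 130.2, 122 and 127 in Par. The summed level of the 14 lung markers was 17620 to 25654 in BrM and 16407 to 18543 in Par. Of that sum the keratin Krt8 alone made 7519, 10290 and 7721 in BrM and 4290, 3835 and 3091 in Par, while Foxa1 averaged 50.1 and 18.2. The 4 Y-linked genes on the list were at 0 in all 3 BrM and all 3 Par libraries.

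Many markers of cells that a graft could carry along were under the filter. These were 11 of 17 for macrophages and microglia, 8 of 14 for endothelium, 8 of 16 for neurons and glia and 9 of 11 for lymphocytes. The sums below came mainly from the markers that passed it. Among 17 macrophage and microglia markers, 9 were at 0 in all BrM libraries and 5 in all Par libraries, Ptprc, Csf1r, C1qa, Itgam and P2ry12 were all under the filter, and the summed level of the list was 1220 to 1592 in BrM against 923 to 1171 in Par. That sum came mainly from Cd14, Cd68 and the microglial marker Tmem119, none of them called, the last with 435, 563 and 428 in BrM and 408, 338 and 215 in Par. Of 14 endothelial markers, 5 were at 0 in all BrM libraries, among them Cldn5, Tie1 and Erg, and 4 in all Par libraries, with sums of 1989 to 2430 in BrM and 1433 to 1686 in Par. Of 16 neuron and glia markers, 6 were at 0 in all BrM libraries, including Aqp4, Olig2 and Rbfox3, and 5 in all Par libraries, with sums of 2116 to 2598 in BrM and 3197 to 3672 in Par. Of 11 lymphocyte markers, 7 were at 0 in all BrM libraries and 6 in all Par libraries, with sums of 21.4 to 61.1 in BrM and 53.8 to 77.3 in Par.

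The sums of the fibroblast and choroid plexus lists were lower in BrM. The 16 fibroblast and pericyte markers summed to 1655 to 2036 in BrM and 5624 to 5944 in Par, with 6 at 0 in all BrM and 2 in all Par libraries, and the 9 choroid plexus and ependyma markers to 293 to 332 in BrM and 13274 to 14608 in Par, with 4 at 0 in all BrM and 3 in all Par libraries. The choroid plexus difference was mainly Enpp2, the secreted lysophospholipase D autotaxin, at 237, 279.5 and 258 in BrM and 13721, 13130 and 14491 in Par (log2 fold change -5.73 ± 0.39, limma adjusted p = 1.18e-06), while the defining choroid gene Ttr was at 0 in all libraries of both groups. The part of other cell types in the results was not tested. In bulk RNA, fewer cells of a type and less RNA per cell cannot be told apart.

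Calls required a limma adjusted p under 0.05 together with a log2 fold change (BrM over Par, on the log2(value + 1) scale) of at least 1 in size, and ± after a fold change is its standard error. By this rule 1099 genes (8.14%) rose and 2037 genes (15.1%) fell in BrM cells, 3136 in all (23.2% of those tested), with a median log2 fold change of -0.05 over all 13494 genes. The BrM libraries lay wholly above the Par libraries for 33.8% of genes and wholly below them for 37.4%. A lack of overlap at a gene named below is to be read against these shares, and list counts against the shares called. Higher genes made up 35% of the calls, and 50.5% after quantile normalization, which gave 1579 higher and 1546 lower and moved the median of all genes to 0.06. Without BrM replicate 2 there were 819 higher and 1769 lower genes.

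**Figure D1:**
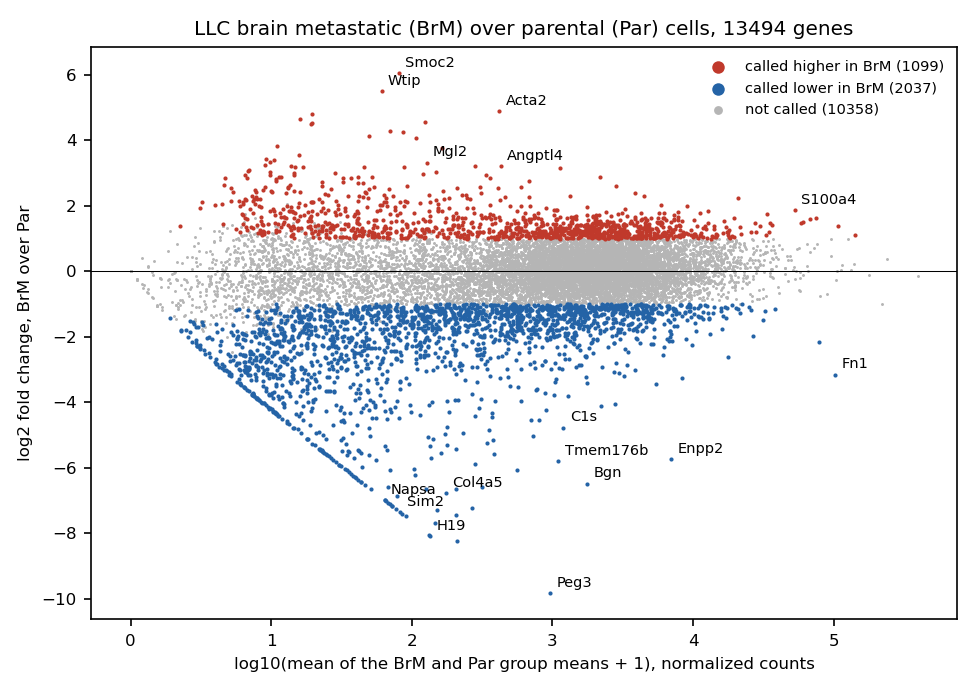
Log2 fold change of BrM over Par (vertical axis) against the log10 of the mean normalized count plus 1 (horizontal axis, mean of the group means) for the 13494 genes tested. Red points were called higher in BrM (1099 genes), blue points lower (2037) and grey points were not called, and the diagonal lower edge is formed by genes at or near 0 in BrM.

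The deepest falls were of genes detected in Par cells and at or near 0 in BrM cells. Peg3, an imprinted zinc finger gene expressed from the paternal allele, had 2.54, 0 and 1.65 normalized counts in BrM cells and 2174, 1776 and 1802 in Par cells. With 3 reads over the 3 BrM libraries it stood at 0.0838% of the Par level (95% interval 0.0173% to 0.245%), an interval that, like the others below, covers counting error only, and the limma adjusted p was 5.77e-08. H19, an imprinted long noncoding RNA, was at 0, 0 and 0 in BrM and 270.3, 244 and 295 in Par. No read of it was counted in BrM, which makes it at least 164-fold lower if 3 reads over the group are taken as the floor (limma adjusted p = 6.54e-06).

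On the same floor, Sdk1, a synaptic adhesion molecule, was at least 163-fold lower, Fmo2, a flavin monooxygenase of lung, at least 107-fold, Sim2, a bHLH-PAS transcription factor, at least 104-fold, Insm1, a neuroendocrine zinc finger factor, at least 103-fold, and Tmem45a at least 94.5-fold (limma adjusted p between 8.7e-09, for Sim2, and 3.04e-06, for Fmo2). All of these were at 0 in every BrM library. Tmem47, a membrane protein of cell junctions, was at 0.131% of the Par level (95% interval 0.00331% to 0.73%), and Myh14, a non-muscle myosin heavy chain, at 0.194% of the Par level (95% interval 0.0049% to 1.08%), both from 1 BrM read. Ptchd1, a patched-domain membrane protein, was at 0.362% of the Par level (95% interval 0.0438% to 1.31%). Armcx2, an armadillo-repeat gene, had 1.27, 0 and 4.94 in BrM and 432, 417 and 378 in Par (log2 fold change -7.43 ± 0.59), and Dlg2, a synaptic scaffold protein, had 3.81, 0 and 8.23 in BrM and 448, 501 and 639.6 in Par (-7.21 ± 0.71). In Lep cells H19 was at 0, 0 and 0, Fmo2 at 0, 1.28 and 2.11, Insm1 at 12.8, 44.7 and 30.9 and Armcx2 at 0, 0 and 1.41 normalized counts, whereas Sim2 was at 478, 463 and 354 and Peg3 at 334, 431 and 182. Armcx2 had log2 fold changes from -8.09 to -6.80 with 1 library left out, moving most without BrM replicate 2 or 3. Dlg2 had log2 fold changes from -7.90 to -6.30 with 1 library left out, moving most without BrM replicate 2 or 3.

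The largest rises were of genes with very low counts in Par cells. Smoc2, a secreted calcium-binding matricellular protein, had 143, 148 and 184 normalized counts in BrM and 1.42, 0.664 and 2.38 in Par (log2 fold change 6.05 ± 1.06, limma adjusted p = 0.000534). The 3 BrM values were close to each other, while Lep libraries, which share the error estimate, ran 3.83, 319.5 and 28.1. Wtip, a LIM protein of the Ajuba family, had 95.1, 139.7 and 120.2 in BrM and 0.711, 1.99 and 2.38 in Par (5.51 ± 0.43, 3.04e-06). Acta2, smooth muscle actin, had 665, 1020 and 744 in BrM and 39.8, 21.9 and 20.2 in Par (4.88 ± 0.39, 3.37e-06). The largest rises and deepest falls were taken from genes whose groups do not overlap, so that feature follows from the choice.

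Afp, the fetal serum protein alpha-fetoprotein, had 145, 212 and 132 in BrM and 5.69, 8.63 and 8.32 in Par (log2 fold change 4.25 ± 0.34), and Dlk2, an EGF-repeat protein of the Notch ligand family, had 208, 282 and 217 in BrM and 14.9, 7.97 and 5.95 in Par (4.55 ± 0.57). Selp, the adhesion receptor P-selectin of platelets and endothelium, had 129, 100.4 and 165 in BrM and 9.25, 5.31 and 3.57 in Par (4.29 ± 0.89). The endothelial markers Cldn5 and Tie1 were at 0 in all BrM and all Par libraries. The 6 endothelial markers tested had a median log2 fold change of 0.95, with 1 called higher and 1 lower. Angptl4, a secreted inhibitor of lipoprotein lipase with a reported part in vascular leakiness, had 741, 843 and 723 in BrM and 91.8, 102 and 58.3 in Par (3.21 ± 0.48, limma adjusted p = 0.000213). Other genes among the 12 largest rises were Atoh8, a bHLH transcription factor (4.06), Plcb1, a phospholipase C (3.77), Mgl2, a galactose-type C-type lectin (3.31), and Mtap2, the older symbol of the dendritic microtubule protein gene Map2 (3.19). Mtap2 averaged 157 ± 48 in BrM and 15.7 ± 0.24 in Par (SD, n = 3 each), while Rbfox3, the nuclear marker of neurons, was at 0 in all of these libraries. Several rises were not particular to BrM. In Lep cells Angptl4 was at 2799, 3002 and 1030 and Afp at 975, 832 and 408, both called lower in BrM than in Lep. Selp (225, 4141 and 171 in Lep), Dlk2, Atoh8, Acta2, Mtap2 and Smoc2 were not called between BrM and Lep. Wtip, Plcb1 and Mgl2 were called higher in BrM than in Par, Int and Lep.

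Complement genes were called mostly in the lower direction. Of 14 complement genes tested, 7 were lower in BrM by limma and 0 higher, 2 being higher at an unadjusted p below 0.05 and 1 by edgeR and by DESeq2; the list's median log2 fold change was -1.02. The counts were 2 higher and 7 lower after quantile normalization. The protease C1s of the classical pathway had 95.1, 80.8 and 75.7 normalized counts in BrM and 2328, 2216 and 2385 in Par (log2 fold change -4.77 ± 0.23, limma adjusted p = 1.13e-07). The BrM and Par libraries did not overlap, as for 37.4% of all genes tested in that direction. C1ra (-2.06), Masp1 of the lectin pathway (-2.97), C2 (-2.16) and Clu, a fluid-phase inhibitor (-1.27), fell as well, while the properdin gene Cfp (0.98) and Cfb (-0.71) were not called. The list had 2 higher members without BrM replicate 3 or Par replicate 3. The list had 1 higher member without Par replicate 1. The call of Clu was lost without BrM replicate 1 or 3 or Par replicate 1, 2 or 3.

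C3, the central complement component, had 0, 6.55 and 1.65 normalized counts in BrM cells, 861, 4236 and 1352 in Lep cells, 897 and 1558 in Int cells and 29.2, 21.9 and 20.2 in Par cells. BrM cells thus had the lowest values of the 4 groups, with no overlap, and the log2 fold change of C3 was -3.17 ± 0.67 over Par (limma adjusted p = 0.00175), -9.29 ± 0.67 over Lep (1.06e-06) and -8.77 ± 0.74 over Int (4.57e-06). The iron carrier Lcn2 had 6.34, 6.55 and 1.65 in BrM, 194, 234 and 261 in Lep, 290.5 and 344 in Int and 0.711, 3.32 and 1.19 in Par. BrM and Par overlapped and were not called apart (1.06 ± 0.45, 0.0634), although quantile normalization (2.09) and the fits without BrM replicate 3 (1.56) and without Par replicate 2 (1.45) did call it, at levels of a few counts. Against Lep the difference was -5.44 ± 0.45 (3.95e-06). The Lcn2 receptor gene Slc22a17 averaged 151 ± 26.4 in BrM and 196 ± 18.1 in Par (SD, n = 3 each) and was not called (-0.38 ± 0.60). C3 had log2 fold changes from -3.91 to -2.45 with 1 library left out, moving most without BrM replicate 1 or 2. The BrM values of C3 rest on a few reads.

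Of 14 iron-handling genes, 2 rose and 1 fell (21.4% called, against 23.2% of all genes tested), with a median of -0.09. The transferrin receptor Tfrc, through which cells take up iron, had 12942, 9812 and 12564 in BrM and 3902, 3943 and 4015 in Par (log2 fold change 1.56 ± 0.28, limma adjusted p = 0.000569), and the iron exporter ferroportin, Slc40a1, had 10.2, 4.37 and 19.8 in BrM and 174, 176 and 194 in Par (-4.08 ± 0.44, 2.5e-05). Neither overlapped between the groups, as was so for 33.8% (higher) and 37.4% (lower) of all genes tested. The heme oxygenase Hmox1 rose (1.31), and the ferritin genes Fth1 (0.00) and Ftl1 (0.93) were not called. The list had 4 higher members without BrM replicate 3.

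Of 30 interferon-stimulated genes tested, 17 fell and 1 rose, with a median log2 fold change of -1.22, and 12 fell after quantile normalization; over all genes tested 8.14% rose and 15.1% fell. Ifit1, an RNA-binding antiviral protein, was at 0 in all BrM libraries and at 14.9, 19.2 and 26.2 in Par (at least 11.9-fold lower, limma adjusted p = 9.34e-05), and Rsad2, the antiviral enzyme viperin, was likewise at 0 in BrM and at 14.2, 20.6 and 22.6 in Par (at least 11.5-fold). Trim30a, an antiviral ubiquitin ligase, was at 5.84% of the Par level (95% interval 1.19% to 17.5%). The guanylate-binding protein Gbp7 had 5.07, 2.18 and 4.94 in BrM and 62.6, 35.9 and 39.2 in Par (log2 fold change -3.23 ± 0.33), and Isg15, the ubiquitin-like modifier, averaged 7.65 ± 3.59 in BrM and 40.7 ± 7.93 in Par (SD, n = 3 each, -2.35 ± 0.64).

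Stat2 (0.00), Irf9 (-0.12) and Irf1 (0.16), transcription factors of the interferon response, were not called, and neither was the RNA sensor Ddx58 (-0.78), while the RNA sensor Ifih1 fell (-2.15). The 1 gene that rose was the HIN-200 family member Ifi204, with 463, 448 and 429.7 in BrM and 219, 192 and 176 in Par (1.19 ± 0.25, limma adjusted p = 0.00164). Ifi203 of the same family fell (-1.82). These 2 genes lie in a family of closely similar copies, so the authors' counting could have split their reads.

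Among 19 antigen presentation genes 10 fell and 1 rose (median -1.43). The classical class I heavy chain H2-K1 had 245, 341 and 199 in BrM and 1886, 1936 and 2119 in Par (log2 fold change -2.95 ± 0.24, limma adjusted p = 3.59e-06), whereas H2-D1 had 15295, 19501 and 15633 in BrM and 14449, 14966 and 14722 in Par and was not called (0.18 ± 0.13). H2 heavy chains are near-identical in parts, so the split of reads between them is uncertain. Nlrc5, the transactivator of class I genes, had 41.9, 34.9 and 26.3 in BrM and 252, 255 and 290.1 in Par (-2.94 ± 0.25, 5.28e-06). Its groups were separate, as for 37.4% of all genes tested in that direction.

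The peptide transporter subunits Tap2 (-2.59 ± 0.26) and Tap1 (-1.60 ± 0.37) and the immunoproteasome subunits Psmb9 (-3.91 ± 0.81) and Psmb8 (-3.64 ± 0.63) fell in BrM, as did the checkpoint ligand gene Cd274 (-1.43 ± 0.21), all as log2 fold changes. Psmb8 had 1.27, 2.18 and 6.58 in BrM and 59, 40.5 and 41.6 in Par. The 1 rise was Psmb10, the remaining immunoproteasome subunit, with 814, 1439 and 858 in BrM and 334, 351 and 302 in Par (1.61 ± 0.24, limma adjusted p = 0.000197). The class I light chain B2m averaged 11560 ± 1603 in BrM and 18532 ± 76.7 in Par (SD, n = 3 each) and was not called (-0.69). H2-DMb1 (-4.47) and H2-DMa (-1.69), which load peptide on class II molecules, and the class Ib gene H2-Q4 (-3.96) fell, and the class II master regulator Ciita was under the filter. Psmb9 had log2 fold changes from -4.38 to -3.25 with 1 library left out, moving most without BrM replicate 3.

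**Figure D2:**
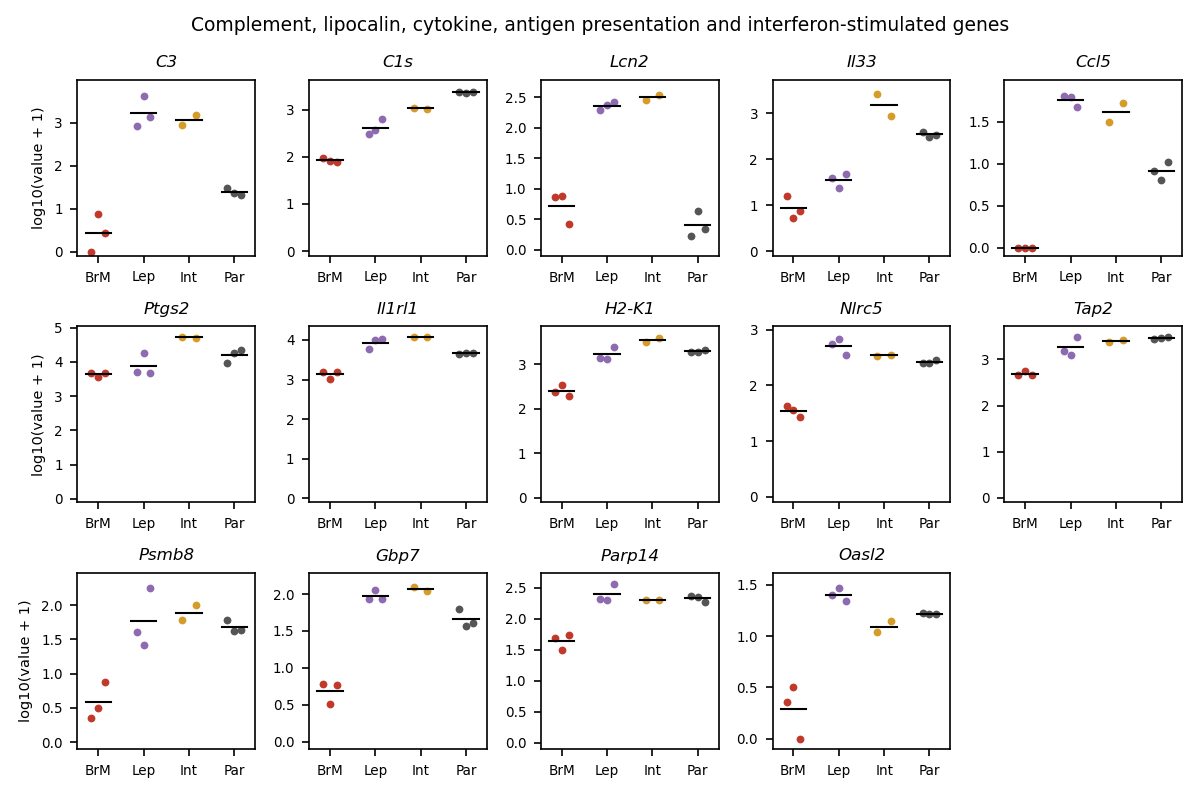
Log10 of the normalized count plus 1 (vertical axes, each panel on its own scale from near 0) in each LLC library for 14 complement, lipocalin, cytokine, antigen presentation and interferon-stimulated genes. Points are libraries of BrM, Lep, Int and Par cells and bars are group means of the plotted values. C3 and Lcn2 are high in Lep and Int and low in BrM and Par, while C1s, H2-K1, Nlrc5 and Psmb8 are lowest in BrM.

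Of 34 cytokine genes and NF-kB targets, 9 fell and 1 rose (29.4% called, against 23.2% of all genes tested), with a median of -0.50. After quantile normalization 3 were higher and 6 lower. Il33, an alarmin cytokine, had 15.2, 4.37 and 6.58 in BrM and 393, 310.0 and 339 in Par (log2 fold change -5.32 ± 0.46, limma adjusted p = 5.28e-06), and Il1rl1, which encodes its receptor, had 1518, 1057 and 1523 in BrM and 4437, 4532 and 4618 in Par (-1.75 ± 0.20, 4.14e-05). Ligand and receptor genes were thus both lower, in 3 of 3 BrM libraries, as were 37.4% of all genes tested. The chemokine Ccl5 was at 0 in every BrM library and at 7.11, 5.31 and 9.51 in Par (at least 4.28-fold lower), and the growth factor Csf2 at 0 in BrM and 7.11, 5.97 and 4.76 in Par (at least 3.79-fold lower). Neither call held with a pseudocount of 10. Ptgs2, the inducible prostaglandin synthase, had 4877, 3592 and 4801 in BrM and 9075, 18083 and 22015 in Par (-1.81 ± 0.43, 0.00393). Il11 (-1.75) and Lif (-1.10), cytokines of the gp130 family, fell, Birc3, an inhibitor of apoptosis, rose (1.13), and the NF-kB subunits Rela (-0.14), Nfkb1 (-0.27) and Relb (-0.35) and the chemokines Cxcl1 (0.06) and Ccl2 (-0.83) were not called. The call of Lif was lost without Par replicate 3.

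The extracellular matrix list held 35 tested genes, of which 18 fell and 2 rose (median -1.15; 5 higher and 18 lower after quantile normalization). Fibronectin, Fn1, which the mesenchymal list holds, had 24369, 15698 and 22855 in BrM and 166497, 176024 and 209232 in Par (log2 fold change -3.15 ± 0.21, limma adjusted p = 1.07e-06). Bgn, the small proteoglycan biglycan, had 36.8, 45.9 and 32.9 in BrM and 3560, 3524 and 3441 in Par (-6.49 ± 0.42, 8.75e-07), and its relative decorin, Dcn, had 100.2, 89.5 and 80.7 in BrM and 1490, 1666 and 1947 in Par (-4.22 ± 0.35, 4.31e-06). The groups did not overlap for any of the 3, as for 37.4% of all genes tested in that direction. Col4a5, a basement membrane collagen chain, averaged 2.25 ± 1.01 in BrM and 344 ± 13.6 in Par (SD, n = 3 each, -6.78 ± 0.59), and Lama4, a laminin chain of vessel walls, was at 0 in all BrM libraries (at least 28.6-fold lower).

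Col6a1 (-2.32), Col6a2 (-2.79), Col18a1 (-1.98), Thbs1, the adhesive glycoprotein thrombospondin (-4.05), and Nid1, a linker of basement membranes (-1.49), fell too, all on the log2 scale. The basement membrane collagen chain Col4a1 averaged 45108 ± 7065 in BrM and 34624 ± 1961 in Par (SD, n = 3 each) and was not called (0.37), and neither was the laminin chain Lamc1 (-0.47). The rises were Col12a1, a fibril-associated collagen, with 82.4, 69.9 and 84 in BrM and 15.7, 12.6 and 20.2 in Par (2.24 ± 0.38), and Col7a1, the anchoring fibril collagen, with 559, 592 and 588 in BrM and 156, 127 and 139 in Par (2.04 ± 0.45). Both were higher in 3 of 3 BrM libraries than in any Par library, as were 33.8% of all genes tested.

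Of 32 proteases and inhibitors tested, 17 fell and 3 rose (median -1.24). Among metalloproteinases, the macrophage elastase Mmp12 was at 0 in BrM and at 34.9, 45.8 and 46.4 in Par (at least 25.8-fold lower, limma adjusted p = 0.00169), Mmp10 had 8.88, 10.9 and 14.8 in BrM and 123, 116 and 120.1 in Par (log2 fold change -3.29 ± 0.60), and the collagenase Mmp13 had 24.1, 28.4 and 41.2 in BrM and 252, 258 and 245 in Par (-3.00 ± 0.76). Mmp3 (-2.06), Mmp19 (-2.33), Mmp11 (-1.73) and the membrane-bound Mmp14 (-1.06) fell as well. The plasminogen activator urokinase, Plau, had 3388, 3511 and 3449 in BrM and 15240, 14341 and 13838 in Par (-2.07 ± 0.36). Plat, the tissue-type activator, had 622, 581 and 568 in BrM and 1537, 1284 and 937 in Par (-1.06 ± 0.21). Timp3, an inhibitor of metalloproteinases held in the matrix, fell (-4.33 ± 0.69), as did Serpine2, which blocks plasminogen activators (-2.60 ± 0.34). The call of Plat was lost without Par replicate 1.

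The 3 rises on that list were Adam8, a sheddase, with 484, 559 and 517 in BrM and 98.2, 91 and 109 in Par (log2 fold change 2.38 ± 0.19, limma adjusted p = 3.05e-06), the inhibitor Timp1, with 1622, 2799 and 1729 in BrM and 826, 842 and 750.2 in Par (1.30 ± 0.20, 0.000218), and Serpini1. Serpini1 encodes neuroserpin, an inhibitor of plasminogen activation that brain metastatic cells of other models are known to make. It had 27.9, 50.2 and 31.3 in BrM and 19.2, 15.3 and 8.32 in Par (1.32 ± 0.39, 0.0134). Its groups did not overlap, as for 33.8% of all genes tested in that direction. The call of Serpini1 was lost without BrM replicate 2 or Par replicate 3.

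Genes reported elsewhere in brain metastasis were collected as a list of 21 tested genes, and since the list was drawn up with earlier results known it is not independent evidence of a direction. Of these, 5 rose and 7 fell (median -0.42), against 6 higher and 4 lower after quantile normalization. The rises were Angptl4 and Serpini1, given above, Tubb3, neuronal beta-tubulin (1.62 ± 0.28), Reln, the secreted glycoprotein reelin (1.73 ± 0.55), and Hoxb9 (1.66 ± 0.24). The falls included Cxcr4, the chemokine receptor, at 0 in BrM and 57.6, 49.8 and 47.6 in Par (at least 32.3-fold lower, limma adjusted p = 2.55e-05), the gap junction gene Gja1 (-1.12 ± 0.12), Lef1, a Wnt transcription factor (-1.50 ± 0.36), and the small heat-shock protein Cryab (-2.21 ± 0.69). Cryab lost its call in edgeR, after quantile normalization, and without BrM replicate 3 or Par replicate 2. L1cam, which binds vessel walls, averaged 213 ± 62.6 in BrM and 114 ± 6.72 in Par (SD, n = 3 each) and was not called (0.85 ± 0.26), St6galnac5 was under the filter, and Hbegf (-0.66) and Pcdh7 (0.64) were not called. The list had 3 higher members without Par replicate 3. The call of Reln was lost without BrM replicate 2 or Par replicate 2 or 3.

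Of 21 mesenchymal genes 2 rose and 7 fell (median -0.33), and of 18 epithelial genes 4 rose and 4 fell (median 0.21, mean -0.16). The epithelial split depended on the method, with 2 higher and 3 lower by edgeR and by DESeq2, and 7 higher and 2 lower after quantile normalization. The collagen cross-linking oxidase Loxl2 had 11.4, 6.55 and 11.5 in BrM and 371, 323 and 296 in Par (log2 fold change -4.96 ± 0.35, limma adjusted p = 1.33e-06), and the osteopontin gene Spp1 had 26121, 34225 and 26741 in BrM and 111726, 134269 and 139445 in Par (-2.15 ± 0.22, 1.82e-05). S100a4, a calcium-binding protein of motile cells, had 63674, 118739 and 65929 in BrM and 29577, 23235 and 14649 in Par (1.88 ± 0.29, 0.000271). None of the 3 overlapped between groups, as was so for 33.8% (higher) and 37.4% (lower) of all genes tested. Of the transcription factors that drive mesenchymal change, Zeb2 (-1.54), Prrx1 (-1.38) and Snai2 (-1.14) fell, and Zeb1 (-0.89), Snai1 (0.08), Twist1 (0.30) and Vim (-0.10) were not called.

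On the epithelial list Elf3, an epithelial ETS factor, had 197, 297 and 227 in BrM and 66.2, 71 and 60.6 in Par (log2 fold change 1.83 ± 0.21, limma adjusted p = 4.09e-05), and keratin Krt8 had 7519, 10290 and 7721 in BrM and 4290, 3835 and 3091 in Par (1.19 ± 0.37, 0.0178). Krt8 lost its call without BrM replicate 2 (adjusted p = 0.0672) and without Par replicate 3 (0.0669), and its partner Krt18 was not called (-0.30). Without BrM replicate 2 the list had 1 rise and 3 falls. The claudin Cldn1 was at 0 in BrM and at 15.7, 9.29 and 16.6 in Par (at least 8.23-fold lower), and the plakoglobin gene Jup averaged 135 ± 1.9 in BrM and 616 ± 106 in Par (SD, n = 3 each, -2.17 ± 0.31). The list had 2 higher members without Par replicate 3.

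**Figure D3:**
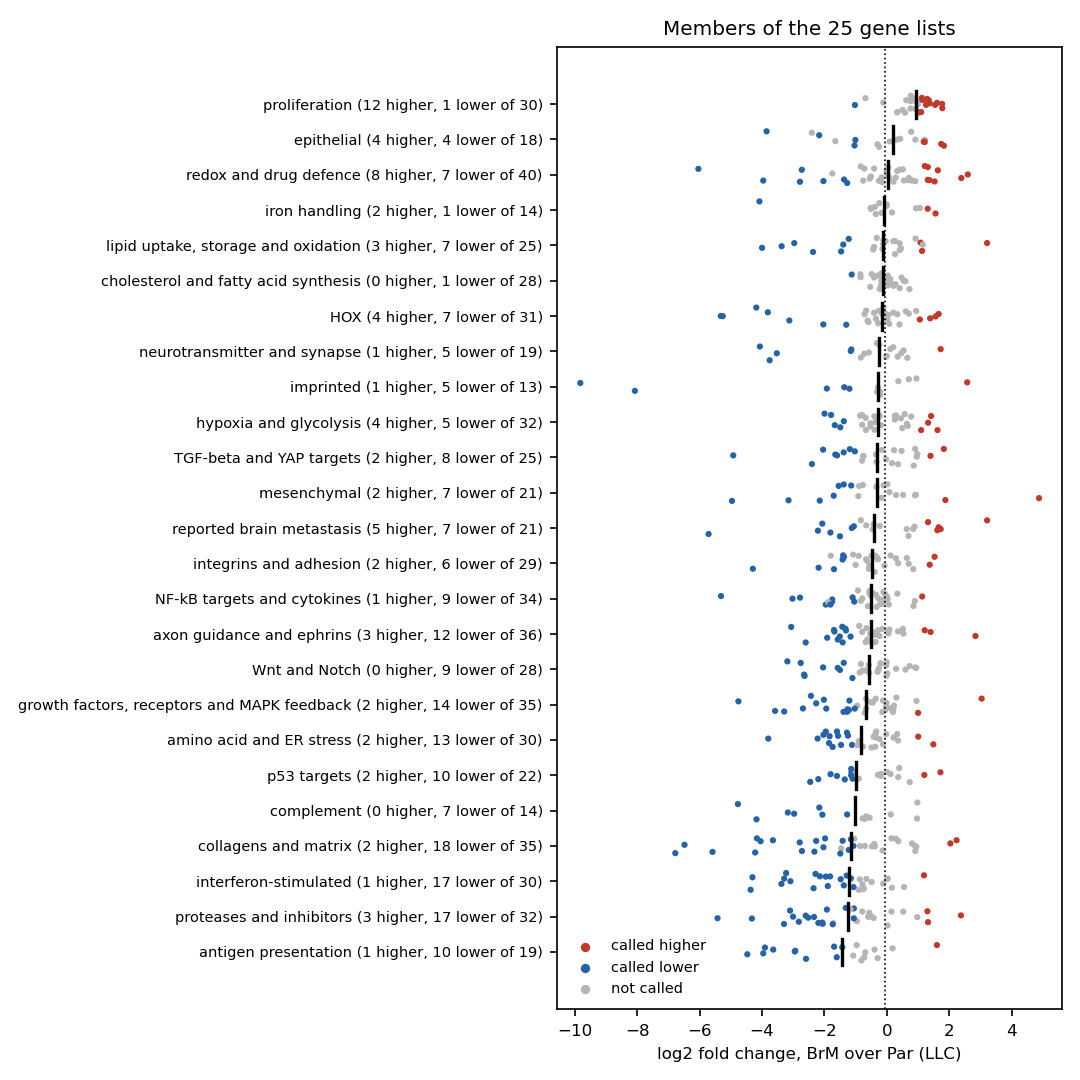
Log2 fold change of BrM over Par (horizontal axis) for the tested members of 25 gene lists, 1 row per list in order of the list median (black bar), with the count of called members beside each name. Red points were called higher, blue lower and grey were not called, and the dotted line marks the median of all tested genes, -0.05. Proliferation has the highest median and antigen presentation the lowest.

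Among the 25 pathway lists, cell cycle genes had the highest median, 0.93: 12 of 30 rose and 1 fell, and 26 were higher and 2 lower at an unadjusted p below 0.05. Rrm2, a subunit of ribonucleotide reductase, had 17296, 17438 and 17034 in BrM and 5806, 5132 and 4267 in Par (log2 fold change 1.78 ± 0.21, limma adjusted p = 4.59e-05), and Birc5, the mitotic regulator survivin, had 7458, 11412 and 7810 in BrM and 2806, 2588 and 2293 in Par (1.77 ± 0.19, 2.47e-05). Ccne1, the cyclin of S phase entry, had 2046, 2506 and 2056 in BrM and 716, 752 and 684 in Par (1.61 ± 0.17, 2.09e-05). All 3 BrM libraries exceeded every Par library for these genes, as they did for 33.8% of all genes tested. Between BrM and Lep, Rrm2 (0.44), Birc5 (0.36) and Ccne1 (0.08) were not called, and 0 members of the list were called in 1 direction against all 3 other stages. Tyms, Mcm5, Cdc20, Plk1, Pcna, Aurka, Ccnb1, Ccnb2 and Mybl2 rose by 1.03 to 1.55 on the log2 scale. Mki67 (0.99), Top2a (0.34) and Myc (-0.69) were not called, and the D-type cyclin Ccnd2 fell (-1.02). The call of Ccnb2 was lost without BrM replicate 2 or Par replicate 3. The call of Ccnd2 was lost without BrM replicate 2 or Par replicate 3 and in edgeR and DESeq2. The call of Mybl2 was lost without BrM replicate 1.

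Of 22 p53 target genes, 10 fell and 2 rose (median -0.98), with 1 higher and 9 lower without BrM replicate 2. The cell cycle inhibitor Cdkn1a had 4303, 4570 and 4152 in BrM and 8754, 9535 and 9111 in Par (log2 fold change -1.07 ± 0.20, limma adjusted p = 0.000757), and Mdm2, the ligase that degrades p53, had 3227, 2961 and 3207 in BrM and 5894, 7260 and 7553 in Par (-1.13 ± 0.14, 5.98e-05). Gdf15, a stress cytokine, had 50.7, 63.3 and 44.5 in BrM and 193, 362 and 354 in Par (-2.46 ± 0.53, 0.00218). The groups were separate in each case, as for 37.4% of all genes tested in that direction. Trp53inp1 (-2.20), Btg2 (-1.80), Bbc3 (-1.35), Zmat3 (-1.14) and Sesn1 (-1.10) fell, and Rps27l (1.72) and the death receptor Fas (1.20) rose. Trp53 itself averaged 9635 ± 341 in BrM and 7311 ± 436 in Par (SD, n = 3 each) and was not called (0.40 ± 0.12), and Bax (0.73) and Ccng1 (0.01) were not called. The list had 1 higher member without Par replicate 1. The call of Sesn1 was lost without Par replicate 1. The call of Fas was lost without BrM replicate 2 or Par replicate 1.

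Genes of amino acid and endoplasmic reticulum stress fell in 13 of 30 cases and rose in 2 (median -0.83), with 1 higher and 12 lower without BrM replicate 2. Atf5, a transcription factor of the integrated stress response, had 1563, 2247 and 1740 in BrM and 7603, 8332 and 9746 in Par (log2 fold change -2.22 ± 0.32, limma adjusted p = 0.000164), and the cystine transporter Slc7a11 had 1721, 1183 and 1668 in BrM and 4510, 6115 and 8421 in Par (-2.03 ± 0.34, 0.000407). Both were lower in 3 of 3 BrM libraries, as were 37.4% of all genes tested. The lipoprotein receptor Vldlr (-3.80), the pseudokinase Trib3 (-1.83), the glutathione-degrading enzyme Chac1 (-1.47) and the factors Ddit3 (-1.56) and Atf3 (-1.74) also fell. Atf4, the factor upstream of many of these, was not called (-0.23), and neither were Asns (-0.34) or the chaperone Hspa5 (-0.02), while Phgdh, which opens serine synthesis, rose (1.01). The list had 1 higher member without Par replicate 1. The call of Trib3 was lost without Par replicate 3. The call of Phgdh was lost without BrM replicate 2 or Par replicate 1.

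Of 40 redox and drug-defence genes 8 rose and 7 fell, with a median of 0.04 and a mean of -0.18, against 8 higher and 4 lower after quantile normalization. Those that rose included Nqo1, a quinone reductase, with 6053, 7325 and 6177 in BrM and 1295, 1302 and 1134 in Par (log2 fold change 2.39 ± 0.19, limma adjusted p = 3.59e-06), and Mgst3, a microsomal glutathione transferase, with 4083, 6401 and 4065 in BrM and 959, 837 and 597 in Par (2.60 ± 0.22, 4.39e-06). Gpx1 (1.64), Prdx1 (1.53), Gclm (1.37), Sod1 (1.31) and Gsta4 (1.22), enzymes that remove peroxides, superoxide or their products or make glutathione, rose as well. The falls were of the extracellular superoxide dismutase Sod3, with 2.54, 2.18 and 1.65 in BrM and 201, 205 and 203 in Par (-6.04 ± 0.86), the organic anion exporter Abcc3 (-3.96), and the enzymes Aldh1a1, Gstt1 (-2.73), Gpx3 (-1.37) and Mgst1 (-1.27) beside Slc7a11. Aldh1a1, with 1 BrM read, was at 6.53% of the Par level (95% interval 0.16% to 39.2%), and its call did not hold with a pseudocount of 10 or after quantile normalization. The regulators Nfe2l2 (-0.72) and Keap1 (0.55) and the target Txnrd1 (0.01) were not called. The call of Gsta4 was lost without BrM replicate 2 or Par replicate 3. The call of Gpx3 was lost without Par replicate 1 or 3 and in DESeq2.

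Of 32 hypoxia and glycolysis genes 4 rose and 5 fell (28.1% called, against 23.2% of all genes tested), with a median of -0.29. Ldha, the lactate dehydrogenase subunit that favours lactate formation, had 98654, 139220 and 102244 in BrM and 41906, 36079 and 31637 in Par (log2 fold change 1.62 ± 0.17, limma adjusted p = 1.96e-05), and Ldhb, the other subunit, had 40.6, 59 and 34.6 in BrM and 146, 128 and 103 in Par (-1.49 ± 0.32, 0.00217). The 2 subunit genes moved in opposite directions with no overlap, as was so for 33.8% (higher) and 37.4% (lower) of all genes tested. Pgam1 (1.32), Pkm2 (1.10) and the carbonic anhydrase Car12 (1.42) rose. Among the falls were the vasodilator peptide Adm, with 370.4, 399.5 and 370.4 in BrM and 1834, 1452 and 1314 in Par (-2.00 ± 0.34), and the angiogenic factor Vegfa, with 3712, 3061 and 3638 in BrM and 9471, 10560 and 13315 in Par (-1.67 ± 0.22). The repressor Bhlhe40 fell too (-1.79), and Slc2a1 (-0.67), Pdk1 (-0.39) and Car9 (-0.52) were not called. The call of Pkm2 was lost without BrM replicate 2.

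Cholesterol and fatty acid synthesis genes were near the overall median: 0 of 28 rose by limma, edgeR or DESeq2, 4 being higher at an unadjusted p below 0.05, and 1 fell (median -0.13). The fall was the desaturase Scd1, with 11206, 8205 and 10711 in BrM and 22252, 21758 and 21145 in Par (log2 fold change -1.13 ± 0.18, limma adjusted p = 0.00027), and without BrM replicate 2 it was at -0.99 and not called. Genes that take up or store lipid were more varied, with 3 of 25 higher and 7 lower (median -0.11), 2 higher and 4 lower without BrM replicate 2, and 5 higher and 5 lower after quantile normalization. Besides Angptl4, the rises were Lpl, the lipase that Angptl4 inhibits (1.08), and the fatty acid carrier Fabp5 (1.13). The carrier Fabp4, with 3 BrM reads, was at 4.47% of the Par level (95% interval 0.91% to 13.3%), and Lipg, an endothelial-type lipase, averaged 4.07 ± 1.63 in BrM and 49.5 ± 5.95 in Par (SD, n = 3 each, -3.37 ± 0.34). The call of Fabp5 was lost without BrM replicate 2 or Par replicate 1, 2 or 3. Fabp4 had log2 fold changes from -4.61 to -3.40 with 1 library left out, moving most without BrM replicate 2 or 3.

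Among 25 TGF-beta and YAP target genes 2 rose and 8 fell (median -0.33; 4 higher and 7 lower after quantile normalization). Inhba, the activin A subunit, had 3.81, 0 and 1.65 in BrM and 56.9, 67 and 89.2 in Par (log2 fold change -4.92 ± 0.56, limma adjusted p = 3.57e-05), and the growth factor Bmp4 averaged 13.9 ± 3.52 in BrM and 75.9 ± 0.491 in Par (SD, n = 3 each, -2.40 ± 0.27). The signal transducer Smad3 (-1.59) and the receptor Tgfbr2 (-1.02) fell, and the YAP target Ankrd1 fell (-2.04) while Ctgf rose (1.83) and Cyr61 was not called (0.16). The list had 1 higher member without Par replicate 3. The call of Tgfbr2 was lost without BrM replicate 2 or Par replicate 1. The call of Ctgf was lost without Par replicate 3. Inhba had log2 fold changes from -5.44 to -4.31 with 1 library left out, moving most without BrM replicate 2.

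Of 35 growth factor, receptor and MAPK feedback genes 14 fell and 2 rose (median -0.67). The receptor Egfr had 446, 240.2 and 328 in BrM and 2135, 2080 and 2136 in Par (log2 fold change -2.69 ± 0.42, limma adjusted p = 0.000269), and its relative Erbb3 averaged 36.4 ± 19.9 in BrM and 163 ± 5.62 in Par (SD, n = 3 each, -2.27 ± 0.37). The feedback inhibitors of receptor signalling Spry1 (-3.29 ± 0.18), Spry2 (-1.39), Spry4 (-1.27), Dusp6 (-1.22) and Dusp4 (-1.20) all fell. Among ligands, the metabolic hormone Fgf21 had 8.88, 8.73 and 18.1 in BrM and 242, 327 and 455 in Par (-4.76 ± 0.79), Hgf, with 3 BrM reads, was at 5.37% of the Par level (95% interval 1.09% to 16.1%), and the neurotrophin Bdnf averaged 766 ± 53.8 in BrM and 2947 ± 251 in Par (-1.94 ± 0.16). The rises were Igfbp7, a secreted protein of vessel walls, with 238, 295 and 255 in BrM and 31.3, 39.8 and 23.8 in Par (3.04 ± 0.49, 0.00035), and Tgfa (1.00). The receptors Met (0.20) and Erbb2 (0.23) were not called. The list had 1 higher member without BrM replicate 1 or 3 or Par replicate 2 or 3. The call of Tgfa was lost without BrM replicate 1 or 3 or Par replicate 1, 2 or 3. The call of Dusp4 was lost without BrM replicate 2.

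The Wnt and Notch list had 9 falls and 0 rises by limma, edgeR and DESeq2 among 28 genes (median -0.57). At an unadjusted p below 0.05, 4 were higher, and the counts were 2 higher and 8 lower without BrM replicate 2 and 3 higher and 6 lower after quantile normalization. The ligand Wnt7b had 556, 686 and 675 in BrM and 5213, 6025 and 6225 in Par (log2 fold change -3.19 ± 0.27, limma adjusted p = 4.31e-06), and the feedback gene Axin2 averaged 6.87 ± 4.5 in BrM and 27.8 ± 4.32 in Par (SD, n = 3 each, -2.04 ± 0.49). The Notch ligand Dll1 (-2.76 ± 0.57) and the receptor Notch3 (-2.64 ± 0.53) fell, while Notch1 (-0.30) and Jag1 (-0.01) were not called. Wisp2, a secreted CCN-family protein induced by Wnt, fell by 2.65 on the log2 scale. Wisp2 had log2 fold changes from -3.12 to -1.89 with 1 library left out, moving most without BrM replicate 1.

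Of 36 axon guidance genes 12 fell and 3 rose (median -0.52). Sema5a, a transmembrane semaphorin, had 696, 417 and 693 in BrM and 5293, 4731 and 4738 in Par (log2 fold change -3.07 ± 0.20, limma adjusted p = 8.35e-07), and the secreted ligand Slit3 had 55.8, 50.2 and 60.9 in BrM and 8.54, 5.31 and 7.13 in Par (2.84 ± 0.56, 0.00118). Neither overlapped. Sema3a (-1.68), Sema3d (-2.60), Sema3e (-1.33), the receptor Plxnd1 (-1.69) and the ephrin Efnb2 (-1.42) fell, the Sema3d call being lost with a pseudocount of 10, and the receptor Nrp1 rose (1.21). Sema3d had log2 fold changes from -3.26 to -1.98 with 1 library left out, moving most without BrM replicate 2 or 3.

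Of 29 adhesion receptor genes tested, 6 fell and 2 rose (27.6% called, against 23.2% of all genes tested), with a median of -0.49. The integrin subunit Itgb8, which releases TGF-beta from its latent form, had 10.2, 0 and 4.94 in BrM and 76.8, 65.1 and 96.3 in Par (log2 fold change -4.29 ± 0.79, limma adjusted p = 0.000747). Alcam (-2.19), Cdh13 (-1.69), Ncam1 (-1.42) and the laminin receptor subunit Itga6 (-1.37) fell, and Mcam (1.53) and Itgb7 (1.38) rose. The shared subunit Itgb1 (-0.56), the fibronectin receptor subunit Itga5 (0.29) and Cd44 (-0.66) were not called. On the synapse list, 5 of 19 genes fell and 1, Reln, rose (median -0.24), with 0 higher and 5 lower without BrM replicate 2. The neurexin Nrxn2 averaged 4.61 ± 2.24 in BrM and 87.9 ± 10.2 in Par (SD, n = 3 each), and the glutamate receptor subunit Gria3 was at 0 in BrM, at least 7.57-fold lower. The synapse list had 0 higher members without Par replicate 2 or 3. The call of Itga6 was lost without BrM replicate 2. Itgb8 had log2 fold changes from -5.03 to -3.29 with 1 library left out, moving most without BrM replicate 1 or 2.

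On the macrophage list Lyz2, lysozyme, with 3 BrM reads, was at 2.65% of the Par level (95% interval 0.543% to 7.85%), and the fractalkine receptor Cx3cr1 rose, with 7.61, 13.1 and 13.2 in BrM and 2.13, 0.664 and 2.38 in Par (log2 fold change 2.20 ± 0.57, limma adjusted p = 0.00599), a call lost with a pseudocount of 10. On the endothelial list Mfsd2a, a lipid transporter of the blood-brain barrier, rose (1.22 ± 0.21) and Vwf fell (-2.64 ± 0.39). On the fibroblast list Tbx18 was at 0 in BrM (at least 57.3-fold lower) and Dcn and Pdgfra fell. On the neuron and glia list Slc1a3, the glial glutamate transporter, rose (1.52 ± 0.33), Syt1 was at 0 in BrM (at least 7.9-fold lower) and Mbp fell (-1.33). On the lung list Napsa, a protease of alveolar cells, was at 0 in BrM and at 130.2, 122 and 127 in Par (at least 77.9-fold lower, 1.33e-06), and the pioneer factor Foxa1 rose (1.44 ± 0.27). No lymphocyte gene was called by limma, edgeR or DESeq2 or passed an unadjusted p of 0.05.

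HOX genes are clustered factors that record body position. Of 31 tested, 4 rose and 7 fell (median -0.15), against 7 higher and 5 lower after quantile normalization. All 6 HoxC genes tested fell: Hoxc4, Hoxc5, Hoxc8, Hoxc9 and Hoxc10 had no read in any BrM library, and Hoxc6 had 1.27, 2.18 and 3.29 in BrM and 144, 115 and 118 in Par (log2 fold change -5.32 ± 0.34, limma adjusted p = 7.93e-07). Par cells had 39.1, 37.2 and 35.7 of Hoxc4, 11.4, 12.6 and 15.5 of Hoxc9 and 5.69, 9.29 and 0 of Hoxc8, the only one of the 6 whose groups overlapped. Against the 3-read floor the genes at 0 were at least 23.2-fold (Hoxc4), 10.4-fold (Hoxc5), 7.9-fold (Hoxc9), 5.43-fold (Hoxc10) and 3.62-fold (Hoxc8) lower. The 6 were also called lower in BrM than in Lep and Int. Reads over overlapping HOX transcripts of either strand cannot be told apart, since the labels do not describe a stranded library. The call of Hoxc8 was lost without BrM replicate 1, 2 or 3 or Par replicate 1 or 2.

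Outside HoxC, Hoxa9 (1.39), Hoxa10 (1.06), Hoxa11 (1.56) and Hoxb9 rose and Hoxb5 fell (-1.30). Hoxb9, with 542, 498 and 576 in BrM and 139, 169 and 206 in Par (1.66 ± 0.24, limma adjusted p = 0.00018), was higher in BrM than in each other stage. The HoxD genes tested, Hoxd3, Hoxd4, Hoxd8, Hoxd9 and Hoxd10, lay between -0.28 (Hoxd8) and 0.94 (Hoxd4) and were not called. The Lep libraries differed at Hoxb3, which was at 356, 341 and 352 in BrM, 0, 0 and 0 in Lep and 336, 315 and 344 in Par. Of the 13 imprinted genes tested 5 fell and 1 rose (median -0.28), with 2 higher and 5 lower without BrM replicate 2 and 1 higher and 3 lower after quantile normalization. Mest, a paternally expressed hydrolase-like gene, had 1084, 974 and 1017 in BrM and 202, 177 and 139 in Par (2.58 ± 0.29, 3.28e-05), Igf2r, the maternally expressed receptor that degrades IGF2, averaged 5574 ± 1273 in BrM and 20734 ± 604 in Par (SD, n = 3 each, -1.92 ± 0.20), and Igf2 was under the filter. The call of Hoxa9 was lost without Par replicate 2.

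**Figure D4:**
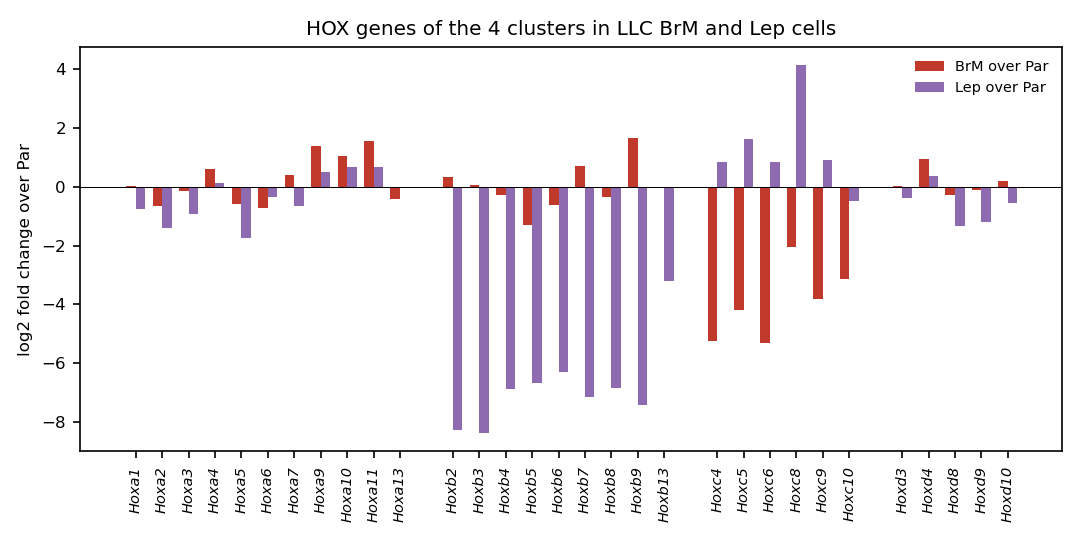
Fitted log2 fold change over Par (vertical axis) of BrM (red) and Lep (purple) for the 31 HOX genes tested, in numerical order within clusters a, b, c and d. HoxC genes are low in BrM and HoxB genes in Lep. Both comparisons share the Par libraries, and bars of genes at 0 in 1 group depend on the added count of 1.

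The other LLC stages show how much of the difference from Par was also a difference from them. BrM differed from Lep at 2427 genes (18%), 925 higher (6.85%) and 1502 lower (11.1%), and from Int at 3770 genes (27.9%), 1357 higher (10.1%) and 2413 lower (17.9%). These comparisons share the BrM libraries with the one against Par. Called in 1 direction against all 3 stages were 813 genes (6.02%), of which 138 were higher (1.02%) and 675 lower (5%) in BrM. Without BrM replicate 2 these were 84 higher and 518 lower, and after quantile normalization 246 higher and 419 lower. Of the lists above, the interferon-stimulated genes held 11 members lower than in all 3 stages, antigen presentation 9, proteases and inhibitors 7, NF-kB targets and cytokines 6 and HOX 6.

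Among genes higher than in every other stage, Mgl2 had 223, 240.2 and 227 normalized counts in BrM, 0, 1.28 and 0.703 in Lep, 7.67 and 9.57 in Int and 23.5, 24.6 and 19 in Par (log2 fold change over Par 3.31 ± 0.35, limma adjusted p = 2.25e-05). Il13ra1, a receptor chain for the cytokines IL-4 and IL-13, had 652, 509 and 634 in BrM, 1.28, 3.83 and 3.51 in Lep, 71.8 and 58 in Int and 78.2, 77.7 and 76.1 in Par (2.93 ± 0.30, 1.78e-05). Ptn, the neurite-promoting growth factor pleiotrophin, had 3770, 4057 and 3691 in BrM, 713, 272 and 1250 in Lep, 913 and 476 in Int and 608, 518 and 442 in Par (2.88 ± 0.42, 0.000162). In each case the BrM libraries were the top 3 of 11, which follows largely from choosing genes called higher against all 3 stages. Wtip was at 0 in all Lep and Int libraries. Notum, an enzyme that inactivates Wnt proteins, averaged 426 ± 72.4 in BrM and 90.4 ± 11.8 in Par (SD, n = 3 each, 2.22 ± 0.32), and the RNA helicase Ddx25 averaged 104 ± 20.5 in BrM and 20.3 ± 4.89 in Par (2.32 ± 0.45).

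Among genes lower than in every other stage, Sim2 was at 0 in all BrM libraries against 478, 463 and 354 in Lep, 162 and 262 in Int and 186, 165 and 142 in Par. The neighbouring membrane protein genes Tmem176a and Tmem176b fell together: Tmem176b had 29.2, 41.5 and 44.5 in BrM, 2251, 3547 and 2714 in Lep, 3728 and 3161 in Int and 2166, 2147 and 2190 in Par (log2 fold change over Par -5.81 ± 0.19, limma adjusted p = 7.51e-09), and Tmem176a was at -6.07 ± 0.29 (1.13e-07). Adamts3, a procollagen-processing protease, had no BrM read and 189, 188 and 186 in Lep, 80 and 41.6 in Int and 99.6, 109 and 91.5 in Par, at least 62.7-fold lower than Par. Adm2, the vasodilator peptide intermedin, had 5.07, 6.55 and 4.94 in BrM, 184, 213 and 581 in Lep, 297 and 299 in Int and 555, 594 and 719 in Par (-6.58 ± 0.35, 2.29e-07). The BrM libraries were the lowest 3 of 11 for all of these genes, which follows largely from choosing genes called lower against all 3 stages.

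**Figure D5:**
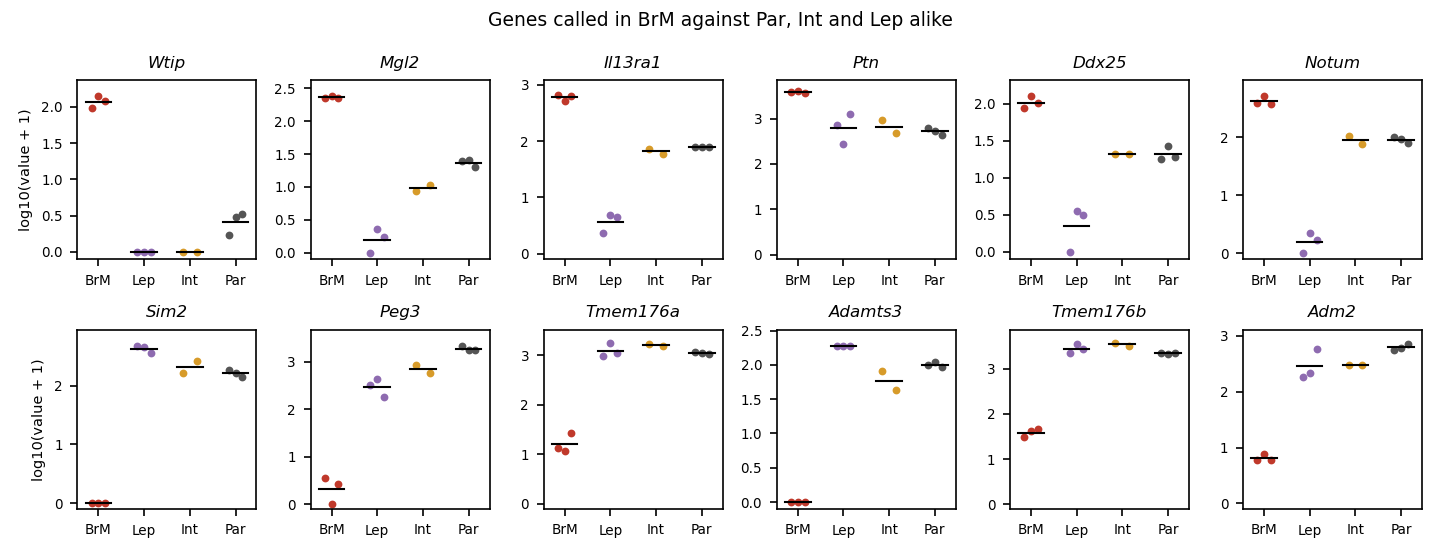
Log10 of the normalized count plus 1 (vertical axes, each panel on its own scale) in each BrM, Lep, Int and Par library for 6 genes higher (upper row) and 6 lower (lower row) in BrM than in all other LLC stages. Points are libraries and bars are group means of the plotted values. BrM libraries are the top 3 of 11 in the upper row and the bottom 3 in the lower row, which follows largely from how the genes were chosen.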

How the data were processed

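RNA-seq libraries of poly(A) RNA from cultured cells were made from 500 ng RNA each with a TruSeq v2 kit and sequenced as paired 50-base reads. The deposited LLC table holds normalized signal per gene symbol, and per the submitters' processing notes the tools were FastQC 0.11.3, HTSeq 0.5.4 and DESeq2, with mm10 named among the builds; no aligner is named there. All deposited values were whole multiples of 1 step per library (100% within 0.01 of a read), so whole reads were recovered, and DESeq2 size factors recomputed from them matched the deposited scaling (deviation 0%).

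The 11 LLC libraries were fitted together with limma-trend 3.58.1 on log2(value + 1) in R 4.3.3, for genes reaching 10 in 2 or more libraries, with Benjamini-Hochberg adjustment over 13494 genes and two-sided tests. Fold changes on this scale understate those of low genes. edgeR quasi-likelihood (4.0.16, TMM) and DESeq2 (1.42.0) on recovered reads were alternatives, and the scripts were tested on simulated data. Named genes were the 12 largest rises and 12 largest falls without overlap whose higher group averaged 100 or more, up to 3 called genes per list, 6 per direction called against all stages, and C3, Lcn2 and Slc22a17 (116 genes); other list members are given as measured. Members and lists (25 pathway and 8 cell type lists) were chosen with earlier results of these data known. Replicate numbers were not used to pair libraries, since the labels do not say that a number is shared between groups. Correlations of same-numbered BrM and Par deviations were -0.005, 0.142 and 0.116. Those of differently numbered libraries ran from -0.136 to 0.083. A fold against a group at 0 uses a floor of 3 reads over the group, and intervals are 95% exact (Clopper-Pearson) and cover counting error only. Gene lengths, promoters and other mouse sequence were not used here, so levels are compared only within a gene. Some genes that the rule for named genes or the lists include are not reported here.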

Additional observations from a re-analysis of the deposited data

How the results depend on the processing

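No named gene reversed direction under any alternative run. Genes higher in BrM than Par numbered 1099, 819 to 1255 with 1 library left out and 819 to 1579 over all alternatives; genes lower numbered 2037, 1769 to 2176 and 1546 to 2364. edgeR called 1177 higher and 1892 lower, DESeq2 1110 and 1897, and a replicate block 1093 and 2046, with the block changing no call of the 116 named genes. BrM replicates 1 and 3 averaged as 1 library, an alternative chosen after seeing the data, gave 1241 and 2137. The fit without BrM replicate 2 kept 2467 of the 3136 calls in the same direction. Of the 317 called list members, 240 lost the call in no alternative run, and 53 lost it in a fit without 1 of the libraries. A run that gave no adjusted p for a gene was counted as no loss. DESeq2 gave an adjusted p for 113 of the 116 named genes, and none for Selp, Cryab and Sod3. Genes of the text that lost it with 1 library left out or by a count test are stated beside the gene, and the cause was not tested. Calls lost only after quantile normalization included those of Isg15, Lef1, Mgst1 and Hoxb5. Those of Ifih1 and Hoxc10 were among the calls lost only with a pseudocount of 10. A correction for gene length and a promoter motif count were not run. The shallowest library is a BrM library, and a count of 0 over the BrM group allows a mean of up to 1.62 normalized counts.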

Other observations

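Gene families that stood out when all genes were listed, and so were chosen after their values were seen, are given here as values. Of 57 clustered protocadherin genes in the table, adhesion proteins that give neurons individual surface codes, 29 passed the value filter, and 26 of those were lower and 0 higher in BrM than in Par by limma, with 0 higher at an unadjusted p below 0.05 and by edgeR or DESeq2 (median log2 fold change -2.54, against -0.05 for all genes). Pcdhb17 had 21.6, 13.1 and 29.6 in BrM and 149, 136 and 119 in Par (-2.66 ± 0.34), and Pcdhgc3 had 3567, 1216 and 3367 in BrM and 6927, 6367 and 6088 in Par (-1.40 ± 0.31). Without BrM replicate 2 the count was 20. The variable exons of these genes are close copies and share constant exons, so reads may have been split among them, and 3 members were lower than in all 3 other stages. The call of Pcdhgc3 was lost without BrM replicate 2.

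All 8 guanylate-binding protein genes that passed the filter, of 11 listed, were lower in BrM, and 6 after quantile normalization. These interferon-induced GTPases act against intracellular pathogens. Gbp4 was at 0 in every BrM library and at 77.5, 69.7 and 76.1 in Par (at least 45.8-fold lower), and Gbp9 at 0 in BrM and at 66.2, 59.1 and 58.3 in Par (at least 38-fold lower). Several members are near-identical copies, so their individual values are uncertain.

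Among S100 genes, small calcium-binding proteins, 5 of 12 rose and 2 fell, the rises including S100a10 with 23830, 41393 and 24320 in BrM and 10883, 9746 and 7575 in Par (1.63 ± 0.21). Of the 5 Armcx genes tested 4 fell, among them Armcx4 with 38, 34.9 and 36.2 in BrM and 549.8, 489.9 and 462 in Par (-3.74 ± 0.38) and Armcx3, at 0 in BrM (at least 20.9-fold lower). Xist, the RNA of the inactive X, had 19860, 7572 and 18175 in BrM and 28978, 24893 and 30004 in Par and was not called (-0.99 ± 0.31, limma adjusted p = 0.0172), with BrM replicate 2 the lowest. It missed only the fold change cutoff, and was called lower without BrM replicate 1 or 3 or Par replicate 2 and after quantile normalization.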
